A study of Mus musculus with 15 samples.

Results

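The whole of thymocyte maturation after the selecting signal was measured as the difference between 3 M2 and 3 PostDP samples, which are 6 of the 15 samples in the series. PostDP cells were CD69-positive, TCRβ-positive CD4 CD8 double-positive thymocytes, which had just received the signal that selects them. They came from B2m-/- mice, which lack the light chain of MHC class I and, per the labels' protocols, select only MHC class II-restricted CD4 T cells. M2 cells were Qa2-positive, CD69-negative CD4 single-positive thymocytes, the last stage before export, and came from Rag2-GFP BAC transgenic mice. SM&M1 cells, the Qa2-negative, CD69-positive CD4 single-positive cells of the same Rag2-GFP line, and PreDP cells, the CD69-negative, TCRβ-negative double-positive cells of the B2m-/- line, gave the stages between and before, with 3 samples each. The remaining 3 samples were SM&M1 cells from Tak1f/f CD4Cre mice, in which Cre from the CD4 gene's promoter deletes Tak1. All mice were young adults on the C57BL/6 background. A dump channel of NK1.1, CD25 and GL3 and the GFP gate served in M2 and SM&M1 sorts to leave out NKT cells, regulatory T cells, γδ T cells and recirculating T cells. The labels' protocols name no such channel for PostDP cells. The series asked how NF-κB and interferon signals take part in late maturation. Mouse line, dump channel and stage cannot be told apart in any difference between M2 and PostDP.

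A double-positive thymocyte whose receptor binds self peptide on MHC is signalled to survive, stops rearranging its receptor genes, chooses a CD4 or CD8 fate and moves from cortex to medulla. During the following days it loses the traits of the immature stage, gains the ability to respond to antigen by dividing rather than dying, and acquires the receptors that let it leave the thymus. Exit depends on KLF2, a transcription factor that turns on S1PR1, the receptor for the lipid sphingosine 1-phosphate in blood. Interferons induce a set of antiviral genes, some of which thymocytes express without infection.

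Levels below are log2(signal + 16) of an Affymetrix probe set, and differences between groups are differences of these levels, so 1 unit is a doubling. Each gene was read from its probe set with the highest mean, and 11594 of 18193 genes lay above the array median in at least 3 arrays and were tested. Tests were limma fits over the 12 arrays of the PreDP, PostDP, SM&M1 and M2 groups with Benjamini-Hochberg adjustment, and an adjusted p below 0.05 is what called, rose or fell means here. The labels call a group's samples biological replicates but do not say that they were separate animals, so the error behind each p-value is that among the samples and could be partly technical. Median signal was 107.93 to 112.97 on the PostDP arrays and 101.71 to 117.54 on the M2 arrays. In bulk samples, fewer cells of a type and less RNA per cell cannot be told apart. The sorted markers followed the labels. Cd8a read 12.51, 12.87 and 12.32 in PostDP and 7.49, 6.94 and 7.48 in M2, Cd69 had means of 13.28 and 11.54, and Cd4 had means of 11.47 and 11.98. The Qa2 genes H2-Q7 and H2-Q9 share 1 probe set, which went from 8.99 ± 0.60 to 13.86 ± 0.17 (SD, n = 3 each). B2m, deleted in the PostDP mice, read 10.17, 10.10 and 10.03 there and 14.33, 14.53 and 14.85 in M2. That probe set differed by 4.47, and another tested B2m probe set by 6.39 ± 0.31. Where these probe sets lie relative to the deleted part is not given in the sources used here. Of the 20 protein-coding genes on each side of B2m, 22 were tested, of which 4 were higher and 6 lower in M2, where 31.6% of all tested genes were called. The pan-T cell genes Ptprc, Thy1 and Cd3e did not pass the test. Their differences were -0.10 ± 0.23, -0.10 ± 0.15 and -0.07 ± 0.18 (log2, SE).

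Some arrays stood apart. M2 replicate 1 and SM&M1 replicate 1 both read higher than the other replicates of their groups for markers of macrophages, granulocytes, NKT cells and γδ T cells. M2 replicate 1 also read higher for genes of the double-positive stage. Rag2, a recombinase gene of double-positive cells, read 7.77, 4.31 and 4.28 in M2. S100a8, a granulocyte gene below the test's filter, read 10.90, 6.82 and 4.95 in M2. PostDP replicate 1 was higher than the other PostDP arrays for cell cycle genes. Sex-linked genes differed among the PostDP arrays, and their differences between M2 and PostDP did not pass (Xist 1.60, adjusted p = 0.55; Eif2s3y 3.90, adjusted p = 0.18). Xist, expressed in females, and the Y-linked Eif2s3y were both high on all 3 M2 arrays (Xist 13.06 to 13.77, Eif2s3y 9.85 to 10.98). In PostDP, replicates 1 and 3 had high Xist and low Eif2s3y, and replicate 2 the reverse. What these differences add to the results was not tested beyond the values without single arrays.

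Between PostDP and M2, 3667 of 11594 tested genes passed (31.6%), 1957 higher (16.9%) and 1710 lower in M2 (14.7%). Of these, 827 were at least 2-fold higher (7.13%) and 525 at least 2-fold lower (4.53%). Changes of at least 16-fold were seen for 27 genes that rose and 10 that fell. The 3 M2 and 3 PostDP arrays did not overlap for 5673 genes (48.9%). The median difference over all tested genes was 0.02, and the standard error of a difference was 0.18 for the median gene. In the plot of all tested genes, rises reached a larger size than falls.

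**Figure D1:**
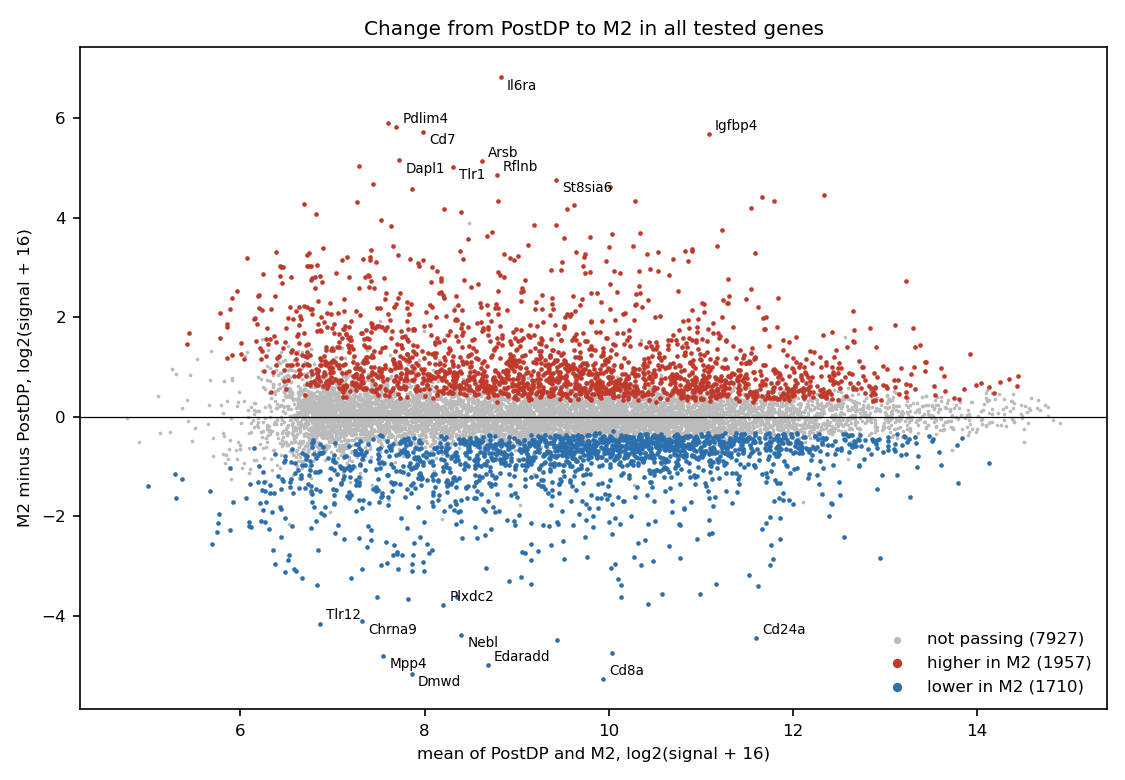
Difference between the M2 and PostDP means (vertical, log2 scale) against the mean level of both groups (horizontal, log2(signal + 16)) for the 11594 tested genes; red and blue points are the 1957 genes higher and 1710 genes lower in M2 at an adjusted p under 0.05, and grey points did not pass. Among named genes, Il6ra has the largest rise (6.83) and Cd8a the largest fall (-5.27).

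The largest rises among ranked genes were of genes with diverse roles. B2m, which differed by 4.47, was left out of this ranking, as were sex-linked and unnamed genes. Il6ra, the ligand-binding chain of the interleukin-6 receptor, read 5.48, 4.57 and 6.18 in PostDP and 12.21, 12.31 and 12.20 in M2. All PostDP arrays were near the floor of the scale and all M2 arrays far above it, a difference of 6.83 ± 0.44 (SE, adjusted p = 8.13e-07). Pdlim4, an actin-associated PDZ-LIM protein, read 4.81, 4.89 and 4.65 against 10.38, 10.61 and 10.82. The T cell surface protein Cd7 read 5.17, 5.18 and 5.01 against 10.68, 10.86 and 11.02. The differences of Pdlim4 and Cd7 were 5.82 ± 0.52 and 5.73 ± 0.12. Arrays that do not overlap were a condition of this ranking, so their separation is no separate result. Igfbp4, a binding protein for insulin-like growth factors, started from a middle level and ended among the brightest genes. Its level went from 8.15 to 8.30 in PostDP to 13.57 to 14.24 in M2, a difference of 5.68 ± 0.26. Dapl1 rose by 5.16 ± 0.27, the lysosomal sulfatase gene Arsb by 5.14 ± 0.50 and the Toll-like receptor gene Tlr1 by 5.03 ± 0.30. The sialyltransferase gene St8sia6 rose by 4.77 ± 0.19. The remaining large rises were of Rflnb (4.87), Calhm6 (4.67), the phagocyte oxidase subunit gene Ncf4 (4.59), Klf2, Ccnd2, Slfn1 and Ifi27l2a. With all probe sets of a gene averaged, the differences were 4.06 for Il6ra and 3.12 for Arsb.

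Genes of maturation and egress moved mostly upward. Of 31 tested genes of this list, 17 rose and 5 fell, against 16.9% higher and 14.7% lower among all tested genes. The falls were thus near their share of all tested genes. The list's median difference was 1.23, against 0.02 over all tested genes. Klf2 read 7.55, 7.74 and 7.82 in PostDP and 12.28, 12.37 and 12.29 in M2. The M2 arrays lay within 0.05 (SD) of each other and far above every PostDP array, 24.5-fold higher (4.61 ± 0.18, adjusted p = 3.48e-08). S1pr1, the exit receptor, read 7.46, 7.33 and 7.67 against 11.49, 12.27 and 11.49, a difference of 4.26 ± 0.26. Foxo1, a transcription factor of resting lymphocytes, was 5.41-fold higher. Ms4a4c, a membrane protein of mature lymphocytes, was 14.6-fold higher, and the gut-homing integrin chain Itgb7 was 7.82-fold higher. Among the genes that fell, the costimulatory receptor gene Cd27 went down by 1.31 ± 0.11 and Itm2a by 0.93 ± 0.15, or by 1.46 with all Itm2a probe sets averaged. Levels of Klf2, S1pr1, Il6ra and 13 other genes on every array are plotted by stage.

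**Figure D2:**
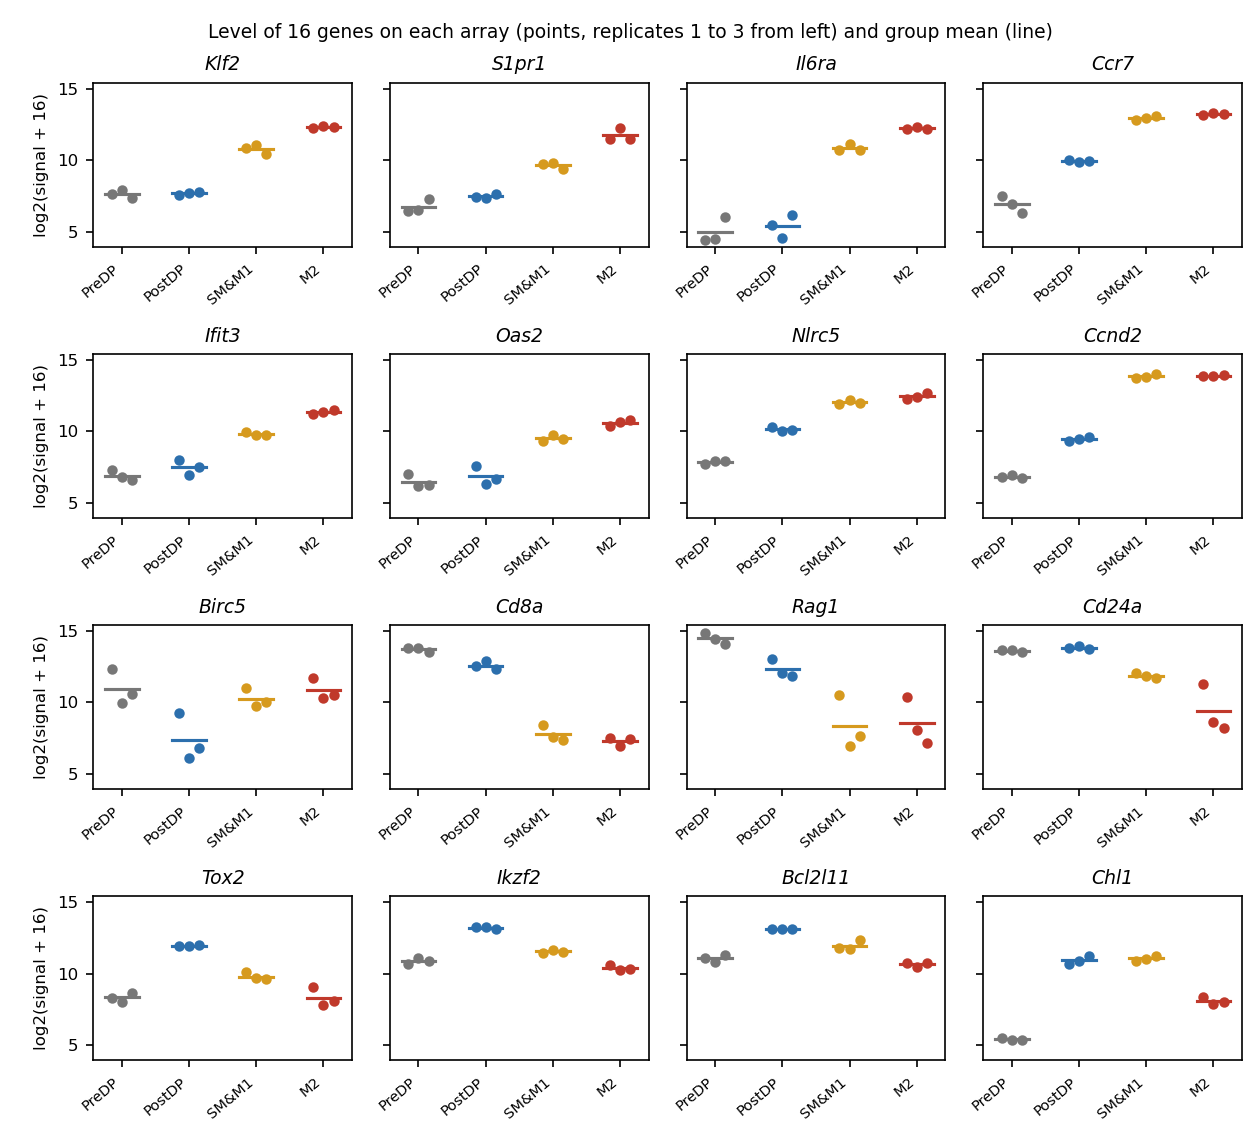
Level of 16 genes (vertical, log2(signal + 16)) on the 3 arrays of PreDP, PostDP, SM&M1 and M2 (points, replicates 1 to 3 from left) with the group mean (line). Klf2, S1pr1 and Il6ra climb at both steps after PostDP, Ccnd2 and Cd8a make nearly all of their change by SM&M1, Chl1 changes at the last step, and replicate 1 of M2 is high for Rag1 and Cd24a.

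Interferon-stimulated genes moved as a group. Of 50 tested genes, 46 rose and none fell, against 16.9% higher among all tested genes, and their median difference was 1.65. The 4 that did not pass were Stat2, Ifi203, Gbp3 and Igtp. Ifi27l2a read 10.52, 9.18 and 9.18 in PostDP and 13.76, 13.87 and 14.26 in M2. Ifit3, whose product binds viral RNA complexes, read 8.0, 6.97 and 7.51 against 11.21, 11.36 and 11.49. Oas2, which makes the oligoadenylate that activates RNase L, read 7.6, 6.31 and 6.71 against 10.35, 10.63 and 10.80. For all 3 genes, PostDP replicate 1 was the highest PostDP array and still lay below every M2 array. Differences were 4.34 ± 0.44, 3.86 ± 0.24 and 3.72 ± 0.31. Per array, the median of the 50 genes lay between -0.16 and 0.28 of the PostDP mean in PostDP, between 1.21 and 1.44 in SM&M1 and between 1.60 and 1.85 in M2. Without M2 replicate 1, 45 of the 50 genes rose.

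Promoters of these genes are shown because a known interferon-response string recurs in them. The windows are RefSeq's (GRCm38.p6), 250 bases before to 50 after each gene's start, for 27025 genes. The string GAAA, any 2 bases, GAAA, which matches the interferon-stimulated response element, was found on either strand in 20 of 40 interferon-stimulated genes with a window. It was found in 3.78% of the 9432 tested genes with a window and in 3.99% of all windowed genes. Genes at least 2-fold higher in M2 held it in 8.70% of 655 windows, and genes at least 2-fold lower in 3.83% of 418. The 655 include interferon-stimulated genes, so the 8.70% is not separate from the 20 of 40. The string was 1 of 15 searched, and it and the genes shown were chosen after shares and values were seen. Below are the 160 bases before the start of 4 genes that rose, with matches in capitals: Ifit3 (chr19:34583369-34583528, plus strand), Ifit1 (chr19:34640729-34640888, plus strand), Slfn8 (chr11:83020811-83020970, minus strand) and Oas3 (chr5:120777660-120777819, minus strand).
Ifit3: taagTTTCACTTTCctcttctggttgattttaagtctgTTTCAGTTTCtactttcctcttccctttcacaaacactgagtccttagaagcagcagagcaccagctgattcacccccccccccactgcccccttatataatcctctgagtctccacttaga
Ifit1: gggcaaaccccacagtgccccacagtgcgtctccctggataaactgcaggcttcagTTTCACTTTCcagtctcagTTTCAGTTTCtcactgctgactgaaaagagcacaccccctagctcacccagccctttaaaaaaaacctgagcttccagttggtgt
Slfn8: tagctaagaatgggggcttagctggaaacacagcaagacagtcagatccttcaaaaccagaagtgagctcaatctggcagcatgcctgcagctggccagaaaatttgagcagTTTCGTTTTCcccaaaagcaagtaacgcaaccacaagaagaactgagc
Oas3: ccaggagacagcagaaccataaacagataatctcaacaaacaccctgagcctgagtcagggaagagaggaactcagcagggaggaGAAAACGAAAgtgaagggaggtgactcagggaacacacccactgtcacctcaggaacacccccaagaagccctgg
Ifit3 and Ifit1 hold 2 matches each and the others 1. In this order, the 4 genes rose by 3.86, 3.31, 2.86 and 2.45 on the log2 scale. A match is only a description of the letters and not evidence of a factor bound there.

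The Schlafen, MS4A and MHC class I lists had rises and no falls. Of 12 tested Schlafen and MS4A genes, 11 rose, none fell and the pseudogene Slfn10-ps did not pass, with a median of 1.81. Slfn1, linked to growth arrest in T cells, read 8.63, 7.64 and 8.06 in PostDP and 12.12, 12.50 and 12.75 in M2. The difference was 4.35 ± 0.47, or 2.06 with all its probe sets averaged. Slfn8 and Slfn1 are also members of the interferon list. Of 17 tested MHC class I presentation genes, 9 rose and none fell, with a median of 0.99. Nlrc5, the transactivator of class I genes, rose from 10.01 to 10.30 in PostDP to 12.27 to 12.65 in M2, 4.90-fold (adjusted p = 6.30e-07). Psmb9, an immunoproteasome subunit, rose 4.63-fold, the peptide transporter Tap1 3.21-fold and the class I heavy chain gene H2-M3 2.86-fold. These genes belong to the pathway whose light chain the PostDP mice lack, so the mouse line and the stage cannot be told apart here either. Of 8 GIMAP genes, GTPases of lymphocyte survival, 3 rose and 2 fell, Gimap9 (-0.62) and Gimap6 (-0.44). Gimap6 did not pass without PostDP replicate 1 or 2, without any 1 M2 array, or over all 15 arrays. Gimap3 was 5.15-fold and Gimap4 3.47-fold higher in M2.

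The list plot sets all 25 lists side by side. Each list's counts, above and below, stand beside 16.9% higher and 14.7% lower among all tested genes.

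**Figure D3:**
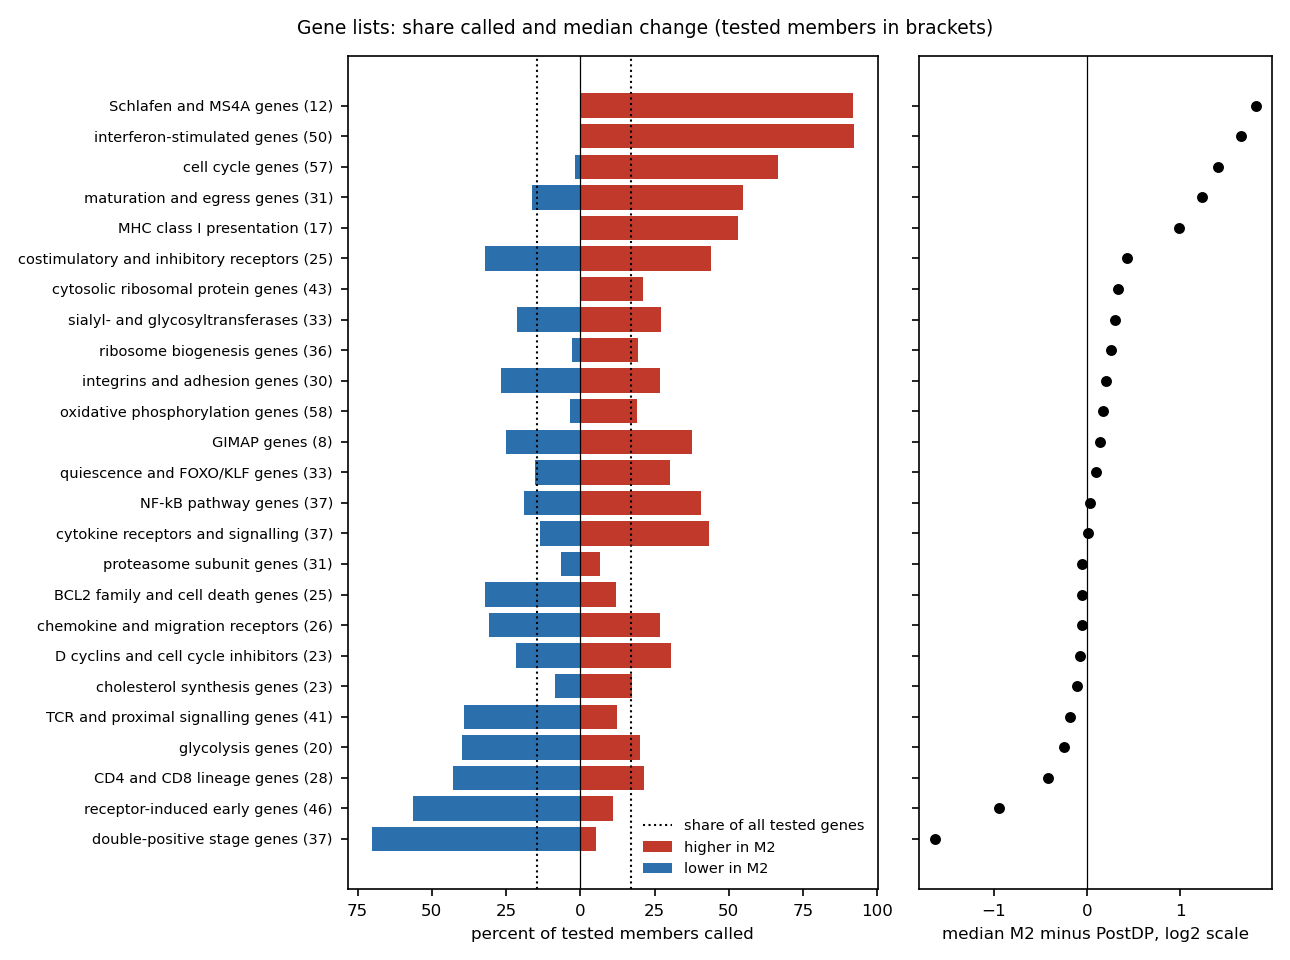
Left, percent of the tested members of each gene list called higher (red, to the right) or lower (blue, to the left) in M2 than in PostDP, with dotted lines at the shares of all tested genes (16.9% and 14.7%); right, the median log2 difference of the list. The Schlafen and MS4A genes (1.81) and the interferon-stimulated genes (1.65) have the highest medians, and the double-positive stage genes (-1.64) the lowest.

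The largest falls in the same ranking, after Cd8a, were of genes with diverse roles. Dmwd, a WD-repeat protein gene, read 10.21, 10.33 and 10.79 in PostDP and 5.34, 5.59 and 4.91 in M2, a difference of -5.16 ± 0.20. Edaradd, an adaptor of the ectodysplasin receptor, fell by 4.99 ± 0.42 and the scaffold gene Mpp4 by 4.80 ± 0.39. Tlr12, an endosomal Toll-like receptor gene, read 8.87, 9.11 and 8.82 against 4.73, 4.76 and 4.86. All M2 values of Tlr12 lay near the floor of the scale. The acetylcholine receptor subunit gene Chrna9 fell by 4.11 ± 0.25. Other falls in the top 15 were of Plxdc2 (-3.77), the acetylcholine receptor clustering gene Rapsn (-3.66), the MAP kinase phosphatase gene Dusp16 (-3.62), the choline dehydrogenase gene Chdh (-3.56) and Basp1 (-3.55). With all probe sets averaged, the differences were -2.62 for Dmwd, -3.29 for Edaradd and -2.36 for Tlr12. At a pseudocount of 1, another probe set of Tlr12 became its brightest and did not pass (-0.66, adjusted p = 0.36). With the probe set kept, Tlr12 differed by -5.25 at that pseudocount (adjusted p = 2.92e-07).

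Genes of the double-positive stage formed the list with the lowest median. Of 37 tested, 26 fell and 2 rose, Cd4 and the fatty acid elongase gene Elovl6, with a median of -1.64. The sort markers Cd8a, Cd8b1 and Cd4 are among these 37, and Cd4 differed by 0.22 with all its probe sets averaged. The call of Cd4 (0.51, adjusted p = 0.0396) was lost over all 15 arrays, without a filter, and without PostDP replicate 2 or 3, M2 replicate 2 or 3, PreDP replicate 2 or SM&M1 replicate 2. Rag1, the recombinase gene, read 13.01, 12.07 and 11.84 in PostDP and 10.41, 8.05 and 7.19 in M2. Cd24a, the heat-stable antigen lost on mature thymocytes, read 13.83, 13.92 and 13.73 against 11.26, 8.62 and 8.25. For Rag1 and Cd24a, M2 replicate 1 stood 2 or more units above the other M2 arrays. The differences were -3.76 ± 0.91 (adjusted p = 0.00887) and -4.45 ± 0.58 (adjusted p = 0.000154). Nebl, a nebulin-family actin-binding protein, had the same split, at 8.25, 5.40 and 4.96 in M2 against 10.46 to 10.70 in PostDP (-4.38 ± 0.89), or -2.51 with all its probe sets averaged. The transcription factor gene Myb was 10.5-fold lower. Rag2 did not pass (-2.16 ± 1.0, adjusted p = 0.13). Without M2 replicate 1, Rag2 differed by -3.32 (adjusted p = 0.0157) and 29 of the 37 genes fell.

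Early genes induced by the T cell receptor mostly fell from the level they had just after selection. Of 46 tested, 26 fell and 5 rose, with a median of -0.95. Cd69, a sort marker, is one of the 26. Tox2, a relative of the CD4-lineage factor TOX, had a mean of 11.94 ± 0.05 (SD, n = 3) in PostDP and read 9.07, 7.83 and 8.09 in M2. Ikzf2, the Helios gene, read 13.27, 13.27 and 13.09 against 10.57, 10.22 and 10.29. Both had lower PreDP means than PostDP means, 8.33 for Tox2 and 10.88 for Ikzf2, and the M2 means were 8.33 and 10.36. The differences from PostDP to M2 were -3.61 ± 0.28 and -2.85 ± 0.15, the former -2.34 with all probe sets averaged. Pdcd1, the inhibitory receptor PD-1, was 5.89-fold lower in M2. Rgs1, a regulator of G protein signalling, went the other way, from 6.03 to 6.68 in PostDP to 9.13 to 9.95 in M2 (3.10 ± 0.42). The transcription factor gene Irf4 rose by 1.46 ± 0.38 (adjusted p = 0.0138). Its adjusted p was 0.0544 without replicate 1 of SM&M1 and M2.

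Cell cycle genes were higher in M2 than in PostDP. Of 57 tested genes, 38 rose and 1 fell, with a median of 1.41. Birc5, the mitotic regulator survivin, read 9.24, 6.11 and 6.84 in PostDP and 11.72, 10.34 and 10.50 in M2. Bub1, a spindle checkpoint kinase, read 7.52, 4.41 and 5.30 against 9.73, 8.55 and 8.46. In both genes PostDP replicate 1 was far above the other PostDP arrays, M2 replicate 1 was the highest M2 array, and no M2 array lay below a PostDP array. The differences were 3.46 ± 0.80 (adjusted p = 0.00662) and 3.17 ± 0.73 (adjusted p = 0.00653). The chromosome segregation gene Kif2c rose by 3.21 ± 0.70 and the spindle gene Nusap1 by 3.19 ± 0.69, or by 1.30 and 1.81 with all probe sets averaged. The PreDP means of Birc5 (10.95) and Bub1 (9.20) were again above those of PostDP. By array, the list median stood at 0.42, -0.21 and -0.24 relative to the PostDP mean in PostDP, and at 1.90, 1.14 and 1.01 in M2. In SM&M1 it already stood at 1.80, 1.30 and 1.31. Without M2 replicate 1, 28 of the 57 rose, and without replicate 1 of both M2 and SM&M1, 26. Without PostDP replicate 2 or replicate 3 the number was 28. Cdc45, a replication helicase factor, was the gene that fell (-1.53 ± 0.46, adjusted p = 0.0246). Another of its probe sets read higher in M2 by 1.37 ± 0.25, so the direction of Cdc45 depends on the probe set. Its fall did not pass without PostDP replicate 2 (adjusted p = 0.0653) or replicate 3 (adjusted p = 0.068), nor without M2 replicate 3 (-0.98, adjusted p = 0.0812).

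Cell cycle promoters are shown for the string TTTGAA, the core of the cell cycle genes homology region. It was present on either strand in 19 of 47 cell cycle genes with a window, in 14.3% of tested genes with a window and in 20.2% of all 27025 windowed genes. Of interferon-stimulated genes with a window, 12 of 40 also held it, as did 5 of 10 Schlafen and MS4A genes. Genes at least 2-fold higher in M2 held it in 18.9% of 655 windows, and genes at least 2-fold lower in 14.1% of 418. Of the other strings searched, TTTGGCGC and TTTCCCGC, forms of the E2F site, were each in 6 of the 47. They were in 1.17% and 2.35% of tested genes with a window. Mki67 (chr7:135716380-135716539, minus strand) and Cdk1 (chr10:69352913-69353072, minus strand), chosen after their values were seen, rose by 3.11 and 2.94. The 160 bases before their starts hold 2 matches each, in capitals.
Mki67: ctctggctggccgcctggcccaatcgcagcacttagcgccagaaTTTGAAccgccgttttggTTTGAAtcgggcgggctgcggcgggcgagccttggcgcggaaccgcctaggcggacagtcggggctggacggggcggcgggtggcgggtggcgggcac
Cdk1: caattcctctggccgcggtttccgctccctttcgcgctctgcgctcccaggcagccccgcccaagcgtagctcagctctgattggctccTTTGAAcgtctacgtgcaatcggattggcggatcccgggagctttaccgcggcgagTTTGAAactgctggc
Mki67, the proliferation antigen Ki-67, read 9.34, 7.36 and 7.13 in PostDP and 11.81, 10.63 and 10.70 in M2, so its groups did not overlap.

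Regulators around the cycle moved both ways. Ccnd2, the D-type cyclin of lymphocytes, read 9.32, 9.47 and 9.58 in PostDP and 13.87, 13.86 and 13.91 in M2. It is the largest change of its list, a 21.5-fold rise (4.43 ± 0.12, adjusted p = 1.38e-09). Of 23 tested D cyclins and inhibitors, 7 rose and 5 fell. Myc was 1.98-fold and its antagonist Mxd1 2.53-fold higher, and the pocket protein gene Rbl2 was 2.55-fold lower. Of 37 tested NF-κB pathway genes, 15 rose and 7 fell, with a median of 0.03, close to that of all genes. Bcl3, a nuclear partner of NF-κB p50 and p52, read 5.72, 6.17 and 6.47 in PostDP and 10.28, 10.37 and 10.26 in M2 (4.18 ± 0.17). The receptor gene Tnfrsf4, OX40, was 4.28-fold higher and the adaptor gene Traf5 4.77-fold, or by 1.48 on the log2 scale with all Traf5 probe sets averaged. In contrast, Nfkbid, an atypical inhibitor, fell by 1.33 ± 0.17 and the subunit gene Nfkb2 by 1.09 ± 0.18, or by 0.66 with all Nfkb2 probe sets averaged. Map3k7, the gene of TAK1, did not pass (0.03 ± 0.20), and differed by -0.20 with all its probe sets averaged. Its other tested probe sets ranged from -0.70 ± 0.30 to 0.11 ± 0.24, and that at -0.475 passed (adjusted p = 0.04875). Without M2 replicate 3, 4 of the 37 fell, and without replicate 1 of M2 and SM&M1, 3.

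Genes of cell death and survival had more falls than rises in the main fit. Of 25 tested, 8 fell and 3 rose, with a median of -0.05. The rises were not above the 16.9% higher among all tested genes. Bcl2l11, which encodes the killer BIM, read 13.08, 13.10 and 13.08 in PostDP and 10.72, 10.49 and 10.71 in M2. All 3 PostDP arrays stood above the PreDP mean of 11.07, and all M2 arrays below it. The difference was -2.45 ± 0.17 (adjusted p = 1.73e-06). Bmf, another BH3-only killer, was 4.51-fold lower (-2.17), or lower by 0.87 with all its probe sets averaged. The survival kinase gene Pim2 was 3.21-fold higher. Bcl2 rose by 0.77 ± 0.17, but its mean over all probe sets did not pass (0.10, adjusted p = 0.63). The number that fell was 5 without M2 replicate 1 or replicate 3, 2 without M2 replicate 2, 3 without PostDP replicate 2 or replicate 3, and 2 over all 15 arrays, while 3 or 4 rose in each of these fits.

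Receptors for migration changed in both directions. Of 26 tested, 7 rose and 8 fell. Ccr7, the receptor that guides cells into the medulla, read 10.02, 9.85 and 9.97 in PostDP and 13.17, 13.32 and 13.24 in M2 (3.30 ± 0.23). Ccr8 read 5.09, 4.66 and 4.43 against 8.22, 8.04 and 7.88 (3.32 ± 0.17), or a difference of 2.06 at a pseudocount of 64. Ccr7 thus rose from a middle level and Ccr8 from near the floor. Cxcr4, a retention receptor of the cortex, read 11.64, 12.25 and 11.96 against 9.68, 9.45 and 8.96 (-2.59 ± 0.24). Of 30 integrin and adhesion genes, 8 rose and 8 fell. The tetraspanin gene Cd9 was 8.93-fold and the integrin chain Itgb3 7.67-fold higher. Chl1, a neural adhesion molecule of the L1 family, was 7.26-fold lower (-2.86), or lower by 1.62 with all probe sets averaged.

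Cytokine receptor genes rose more often than they fell, 16 against 5 of 37 tested, although the list's median was 0.01. Beside Il6ra, the signal inhibitor Socs3 read 8.20, 8.34 and 7.78 in PostDP and 10.87, 11.26 and 12.01 in M2 (3.28 ± 0.33). Tgfbr3, a TGF-β co-receptor, rose by 2.90 ± 0.23, or by 1.37 with all its probe sets averaged. The receptor chain gene Il12rb1 fell by 3.10 ± 0.35 and the inhibitor gene Socs1 by 1.23 ± 0.35. Without PostDP replicate 2 or M2 replicate 3, Socs1 did not pass (adjusted p = 0.0711 and 0.0779).

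Lineage, signalling and costimulation genes were next. Of 28 CD4 and CD8 lineage genes, 12 fell and 6 rose, Cd8a, Cd8b1 and Cd4 among them. Of 41 genes of the T cell receptor and proximal signalling, 16 fell and 5 rose, with a median of -0.18. The costimulatory receptor gene Cd28 read 14.05, 14.05 and 14.13 in PostDP and 12.37, 12.58 and 12.43 in M2, a tight, 3.06-fold lower level. The adaptor gene Sla, whose product lowers surface receptor, was 2.95-fold lower, and Tespa1, needed for positive selection, 2.81-fold lower. The phosphatase gene Ubash3b was 2.88-fold higher and the ubiquitin ligase gene Cblb 2.07-fold, or by 0.69 on the log2 scale with all Cblb probe sets averaged. The count of 16 was 10 without M2 replicate 1 and without PostDP replicate 2 or replicate 3, and 9 over all 15 arrays. Of 25 costimulatory and inhibitory receptor genes, 11 rose and 8 fell. The inhibitory receptor gene Ctla4 was 5.46-fold higher, with M2 arrays at 9.68, 9.54 and 9.05 and PostDP arrays at 7.59, 7.13 and 6.19. The ligand gene Tnfsf14 was 4.55-fold lower (-2.19), or -1.28 at a pseudocount of 64.

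Metabolic and housekeeping lists differed in how often their genes passed. Of 20 tested glycolysis genes, 8 fell and 4 rose. Ldhb, a lactate dehydrogenase subunit, read 13.01, 12.70 and 12.67 in PostDP and 10.49, 10.60 and 10.51 in M2, 4.78-fold lower without overlap. The enolase gene Eno2 was 3.51-fold lower. The number that fell was 5 in each fit without PostDP replicate 2 or 3 or M2 replicate 2 or 3. Of 43 ribosomal protein genes, 9 rose (20.9%) and none fell, near the 16.9% higher among all tested genes, with a median of 0.34. Rpl14 (1.64 ± 0.20), Rpl37 (1.34 ± 0.21) and Rps19 (1.26 ± 0.18) had the largest rises. Without PostDP replicate 2 or M2 replicate 3, 5 of the 43 rose. Of 58 oxidative phosphorylation genes, 11 rose and 2 fell, with the rises again near the 16.9% of all tested genes. Their largest change was of the ATP synthase subunit gene Atp5l (1.28 ± 0.24), and 7 rose without PostDP replicate 3 and 6 without M2 replicate 3. Of 36 ribosome biogenesis genes, 7 rose, near the same background, and 1 fell, and the number that rose was 4 without PostDP replicate 1 3 without PostDP replicate 2 or M2 replicate 3, 1 with arrays centred on their medians and 14 with array weights. Only 4 of 31 proteasome subunit genes passed, 2 in each direction (12.9%, against 31.6% of all tested genes). None of the 31 passed with arrays centred on their medians or without PostDP replicate 2, and 10 passed with array weights. Among 23 cholesterol synthesis genes, 4 rose, near the 16.9% of all tested genes, and 2 fell, with the reductase gene Dhcr7 lower by 0.92 ± 0.13. Quiescence and FOXO/KLF genes had 10 of 33 higher and 5 lower, the falls near the 14.7% lower among all tested genes. Sesn3, a stress-induced brake on mTORC1, was 2.87-fold higher. Of 33 sialyl- and glycosyltransferase genes, 9 rose and 7 fell. Beside St8sia6, the sialyltransferase gene St3gal2 went the other way, 4.46-fold lower.

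The SM&M1 arrays divide each difference into a first and a second step. For the 827 genes at least 2-fold higher in M2, the SM&M1 mean had covered a median of 75.74% of the difference (quartiles 58.92% and 94.30%). For the 525 genes at least 2-fold lower it had covered 64.06% (43.54% and 83.98%). Both steps share the SM&M1 arrays, so these shares are a description. Mouse line and dump channel differ between PostDP and SM&M1 but not between SM&M1 and M2. Any part they have in a difference would fall in the first step, where it cannot be told apart from stage. Ccnd2 had covered 99.2% and Ccr7 91.3%. Klf2 had covered 66.8% and S1pr1 50.8%. Dapl1, by contrast, had covered 31.9% and Socs3 4.59%, so most of their rise came between SM&M1 and M2. Among falling genes, Cd8a had covered 90.3%, Ikzf2 58.1%, Bcl2l11 46.9% and Chdh 32.8%.

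**Figure D4:**
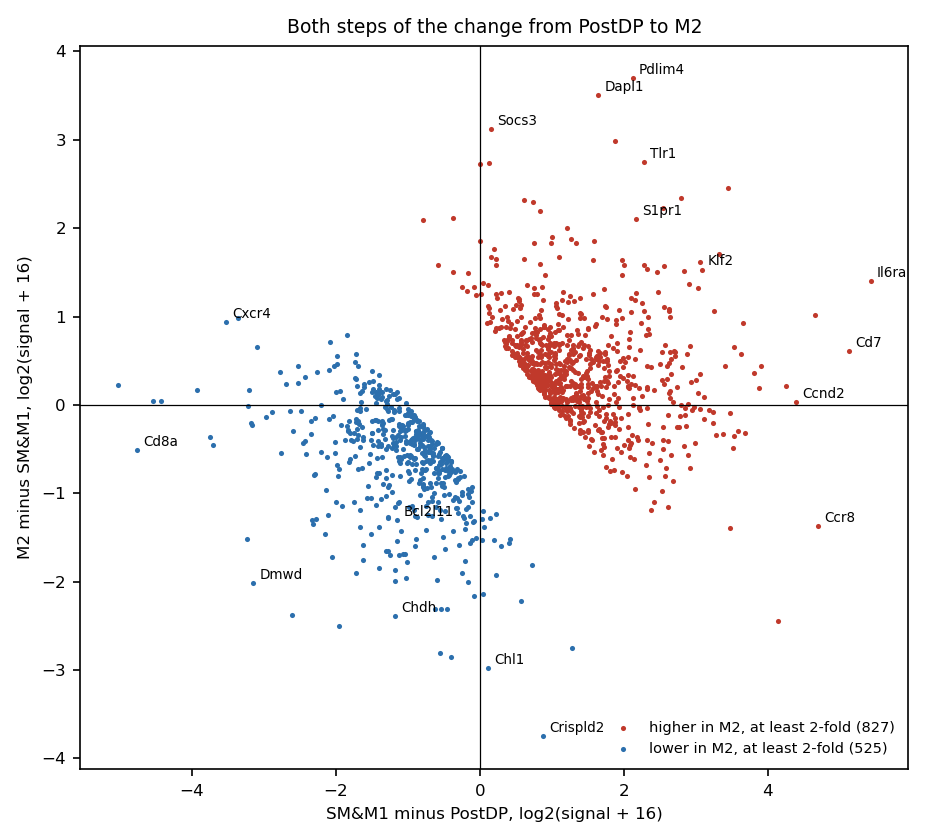
Difference from PostDP to SM&M1 (horizontal) against difference from SM&M1 to M2 (vertical), both on the log2 scale, for the 827 genes at least 2-fold higher (red) and 525 at least 2-fold lower (blue) in M2; both axes contain the SM&M1 arrays. Ccnd2 lies on the horizontal line, Dapl1 and Socs3 near the upper end, and Chl1 and Crispld2 fell at the second step.

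Some genes left the straight course. The SM&M1 mean differed from the midpoint of PostDP and M2 for 614 genes (5.30%), above it for 436 (3.76%) and below it for 178 (1.54%). Of these, 300 (2.59%) had all SM&M1 arrays beyond all 6 arrays of both ends, 224 above (1.93%) and 76 below (0.656%). The cytokine gene Il21 read 4.31, 4.50 and 4.97 in PostDP, 8.70, 8.69 and 8.81 in SM&M1 and 6.80, 6.26 and 5.81 in M2. Ccr8 peaked likewise, at 9.19, 9.62 and 9.44 in SM&M1. Both peaks exceeded the midpoint, by 3.29 ± 0.21 and 3.03 ± 0.15. At a pseudocount of 1 and with quantile normalization, another probe set of Il21 became its brightest, with 1.66 (adjusted p = 0.0636) and 1.35 (adjusted p = 0.0259). With the probe set kept, the values were 4.16 and 3.31, and both passed. The receptor gene Gpr153 read 7.08 to 7.66 in SM&M1 and 4.34 to 5.24 at both ends, so M2 and PostDP differed by only -0.01 ± 0.25. Crispld2 was higher in SM&M1 than in PostDP, 2.31 above the midpoint, and then fell to between 4.93 and 5.27 in M2. Cxcr4 had a low point, at 8.78, 8.37 and 8.15 in SM&M1 (-2.23 ± 0.21 from the midpoint). Ntrk3, a neurotrophin receptor gene, dipped by 1.51 ± 0.18. Its ends differed by -0.42 on this probe set and by -1.75 (adjusted p = 0.00144) on another. For SM&M1 against the mean of PostDP and M2, the count of 614 was 381, 280 and 249 without SM&M1 replicates 1, 2 and 3.

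Markers of other cells were read beside these results. Of 17 tested of 26 macrophage and dendritic cell markers, 3 rose, near the 16.9% higher among all tested genes, and 1 fell. Another 7 lay below the filter, C1qa, C1qb and C1qc among them. The summed signal of the list was 5699 to 6733 in PostDP and 17266 to 22172 in M2. A large part of the M2 sum was signal of its member Ctss, so the sum alone does not tell how the other markers changed. Ctss, the lysosomal protease cathepsin S, read 9.81, 9.20 and 9.31 in PostDP and 13.34, 13.66 and 13.95 in M2 (4.21 ± 0.23), on all M2 arrays alike. The list's median rose with 1 array, at 1.15, -0.03 and -0.02 relative to the PostDP mean on the M2 arrays. Granulocyte markers summed to 4498, 535 and 493 on the M2 arrays and 247 to 397 on the PostDP arrays. NKT markers summed to 6649, 1958 and 2533 against 1898 to 1992. Of 12 tested, 2 rose, Klrd1 and Il2rb, again near the 16.9% of all tested genes. Without M2 replicate 1, Klrd1 did not pass (adjusted p = 0.0506), and the MHC class II chain gene Cd74 moved from 1.20 to 0.66 (adjusted p = 0.0887). Cd74 also failed to pass without any 1 PostDP array. The part of these cells in the results was not tested beyond the fits without that array.

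Among all tested genes, 16.9% were higher and 14.7% lower in M2. Regulatory T cell markers were mostly higher, 8 of 12 tested, with 1 lower. Their summed signal was 16201 to 18657 in PostDP and 18770 to 19935 in M2, so the groups lay close together without overlap. Ikzf4, the Eos gene, rose by 2.76 ± 0.21, or by 1.75 with all its probe sets averaged. Ikzf2, a marker of the same list, fell, and Il2ra, whose product CD25 was in the dump channel, did not pass (0.18 ± 0.29). Foxp3 lay below the filter, at 6.17, 5.88 and 6.74 in PostDP and 6.93, 7.17 and 7.38 in M2. Of 17 effector and memory markers, 7 rose and 2 fell, led by the galectin gene Lgals3 (3.05 ± 0.29). Of 9 CD8 single-positive markers, 4 rose, while the 2 that fell were Cd8a and Cd8b1. Of 12 double-negative thymocyte markers, 4 rose, led by the Notch target gene Dtx1 at 12.13, 12.16 and 12.26 against 8.84, 8.20 and 8.42 (3.69 ± 0.26). Of 10 γδ T cell markers, 4 were tested and 2 rose, Cd163l1 (1.92 ± 0.42) and Maf (1.76 ± 0.54). The adjusted p of Maf was 0.0997 without M2 replicate 1, and 0.0898 and 0.0873 without PostDP replicates 2 and 3. The γδ list's summed signal was 2402, 827 and 957 on the M2 arrays and 2442, 859 and 832 on the SM&M1 arrays. Trgv1, a member below the filter, read 10.02, 6.79 and 5.82 in M2. B cell markers had 1 of 8 higher and 1 lower, and thymic stroma markers 1 of 9 higher, not above the shares of all tested genes. Granulocyte markers had 0 of 2 called by limma. Both tested erythroid markers rose, Hbb-b2 and Car2, but neither passed without M2 replicate 1, without PostDP replicate 2 or over all 15 arrays. Hbb-b2 differed by 1.25 (adjusted p = 0.12) and Car2 by 0.53 (adjusted p = 0.0642) without M2 replicate 1. Of 20 dissociation and stress genes, 4 rose and 4 fell, near the shares of all tested genes. The heat shock gene Hspa1b was higher on every M2 array, at 9.90, 10.44 and 12.20 against 8.20, 7.57 and 7.91. Its M2 and SM&M1 values varied widely, with replicate 3 the highest in both groups. The map of list medians shows these values array by array.

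**Figure D5:**
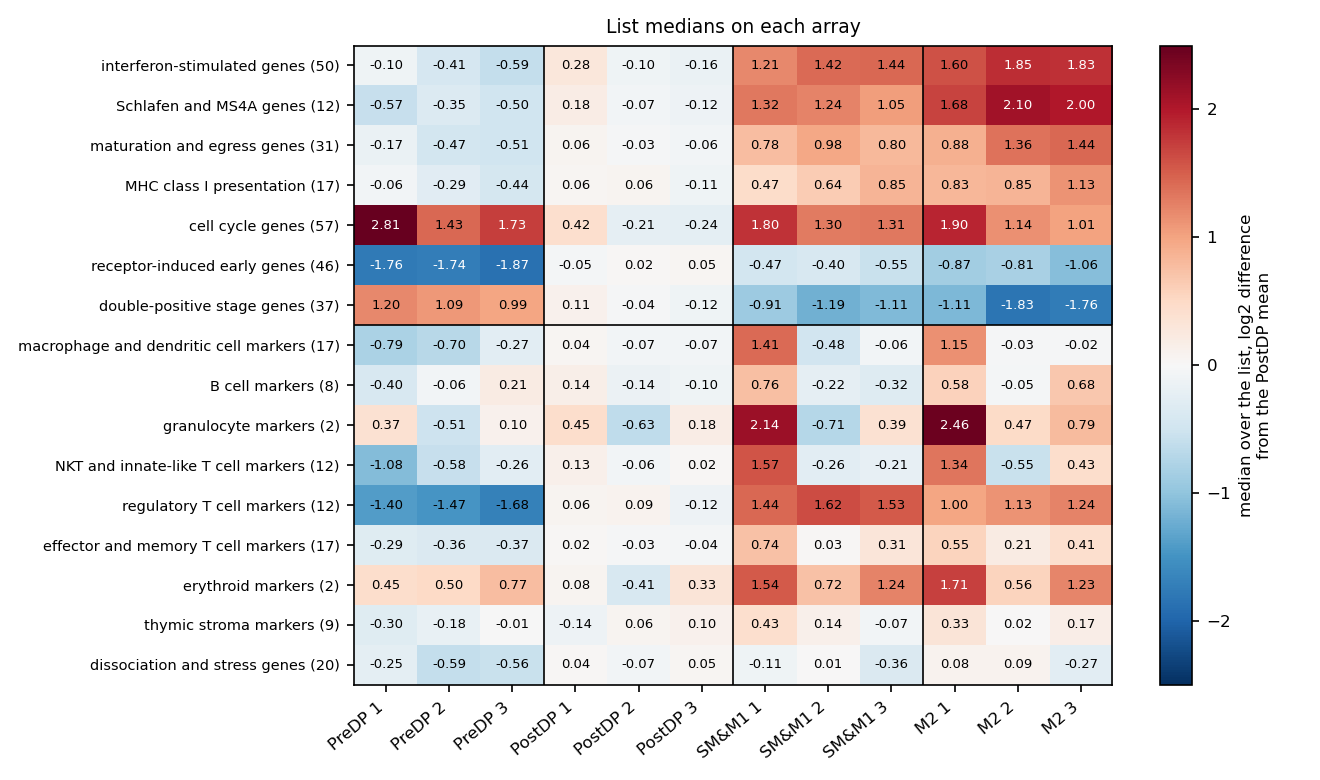
Median over the tested genes of each list (rows, number tested in brackets) on each of 12 arrays (columns), as the log2 difference from each gene's PostDP mean, coloured from blue (lower) to red (higher). Rows above the line are lists of thymocyte biology and rows below it markers of other cells or states; macrophage and granulocyte markers are high on M2 replicate 1 (1.15 and 2.46) and SM&M1 replicate 1 (1.41 and 2.14), and cell cycle genes are lowest in PostDP.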

How the data were processed

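The authors deposited, for each array, the intensity of 45101 Affymetrix probe sets on a linear scale. How they computed and scaled it is not given in the sources used here, but each array's mean after trimming 2% at each end is 500. No further normalization was applied, and values were taken as log2(intensity + 16), so changes of dim genes are understated. Gene names came from the platform annotation: 34945 had 1 gene, 932 several, 9160 none and 64 were controls. Entrez numbers matched current RefSeq symbols (GRCm38.p6) for 34741.

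Of a gene's probe sets, the brightest on average over 12 arrays stood for it (18193 genes), and 11594 genes above the 50th percentile of at least 3 arrays entered the tests. Sample labels gave the groups. The fit (limma 3.58.1, R 4.3.3) used 1 mean per group over 12 arrays, with 8 residual degrees of freedom and no replicate block. The Tak1-deficient arrays were left out because 1 of them stood apart (median signal 167.81, correlation with its group as low as 0.82). A second contrast set SM&M1 against the mean of PostDP and M2. The limma script was tested on simulated data. The comparison, the 37 gene lists (1000 genes, 903 on the array and 828 tested) and the tests were chosen with earlier results of these data known.

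Named genes were the 15 largest rises and falls among genes called, changed at least 2-fold and not overlapping; up to 4 called members of each list, and up to 2 that went the other way; up to 2 for lists of other cells; the 6 largest departures of SM&M1 in each direction; and check genes. Left out of the ranks were unnamed or predicted genes, antigen receptor segments, B2m, sex-linked genes and some sort markers. Genes outside the naming rule that complete a small count, and those shown for their promoters, were named after their values were seen. Of 167 named genes, 75 had another tested probe set, and in 10 of these at least 1 went the other way. Replicate numbers were not taken to pair M2 with PostDP samples: deviations from group means of same-numbered arrays correlated at 0.06, 0.04 and 0.05. Pairing of M2 with SM&M1 samples was not checked in this way, although replicate 1 of both groups stood apart for the same markers. The main fit treats all arrays as independent. Alternatives were other sets of arrays, a replicate block, filters, normalizations, pseudocounts, mean of all probe sets, moderation with trend, array weights and leaving out arrays; 4 with probe sets kept were added after seeing the data.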

Additional observations from a re-analysis of the deposited data

How the results depend on the processing

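M2 against PostDP called 3667 genes. Over all 15 arrays limma called 2243 genes, all of them among the 3667, and the other fits called between 2637 and 4409. Leaving out each array in turn gave 2808 to 4065. SM&M1 against the mean of PostDP and M2 called 614. It called 227 over all 15 arrays, 342 without a filter, 370 with arrays centred on their medians and 348 without replicate 1 of SM&M1 and M2. Leaving out each array in turn gave 249 to 841. The cause was not tested, except that fewer arrays or more genes entered some fits. With replicate number as a block, the counts were 3924 and 820 over 12 arrays, and 2961 and 816 over only the groups compared. With the block, Rag2 passed (adjusted p = 0.0445 and 0.0404), and over only the groups compared Cd4, Cdc45, Gimap6 and Gimap9 did not, leaving 0 GIMAP genes lower and 4 cell death genes in each direction. Replicates 1 and 3 of PostDP correlated best with their own number in M2 and replicate 2 with replicate 3 (0.0473 against 0.0424). The proteasome gene Psmd13 reversed with the mean of all its probe sets (-0.63 to 0.11, adjusted p = 0.59). Of 157 named values that passed, 123 passed in every alternative that gave a value, of 30 run. The 75th percentile filter and the mean of all probe sets gave no value for some genes. Of the 30, 4 kept each gene's probe set under another pseudocount or normalization and were added after seeing the data, since 3 named genes had changed probe set at a pseudocount of 1. Their counts were 2637 to 3825, and 370 for the second contrast with arrays centred. With 3 arrays per group, the number of arrays limits the precision, and dim genes near the floor have less certain sizes.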
